A study of Mus musculus with 18 samples.

Results

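The genes followed here serve ion, bicarbonate and water transport by the colon surface, and were measured in 18 RNA sequencing libraries of mouse colorectum. The members were the rows of the count table whose gene symbol was Car1, Car4, Slc26a3, Slc26a2, Slc9a3, Scnn1a, Aqp8, Atp12a, Cftr or Slc12a2, which gave 10 of 36757 genes. C57BL/6 mice carrying either the floxed allele of the ubiquitin ligase gene Rnf138 (RNF138fl/fl, labelled wild type) or a deletion of it (RNF138-/-) were treated from 6 to 8 weeks of age. In the chronic colitis model, both genotypes drank 2% dextran sodium sulfate (DSS) for 7 days and plain water for 14 days in repeated cycles, and were killed 4 weeks after the last DSS cycle. In the colitis-associated cancer (CAC) model, both genotypes received an intraperitoneal dose of 10 mg/kg azoxymethane (AOM), a colon carcinogen, 4 days before repeated DSS cycles of the same length. The organoids were grown in matrigel from tumor-bearing fragments of CAC mice of both genotypes. Each of the 6 groups had 3 libraries, every animal had received DSS, and no untreated colon was analysed here. The driver of the deletion, the colon segment taken and the animal behind each library are not given in the sources used here, so the p-values measure the spread between these samples, which may be partly technical.

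Surface colonocytes absorb sodium chloride and water. Sodium enters from the lumen through the sodium-hydrogen exchanger encoded by Slc9a3 and the epithelial sodium channel, whose alpha subunit is encoded by Scnn1a, while the Slc26a3 product takes up chloride in exchange for bicarbonate. Carbonic anhydrases supply the bicarbonate and protons for these exchangers, and aquaporins such as that encoded by Aqp8 pass water. Crypt cells secrete chloride, which the cotransporter encoded by Slc12a2 loads across the basolateral membrane and the channel encoded by Cftr releases into the lumen.

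Total counts ranged from 11514716 to 24390082 per library. Levels are given below as counts per 1000000 (CPM) after trimmed mean of M-values (TMM) scaling over all 18 libraries, as the mean ± SD of 3 libraries where no single values are given. Rnf138 itself was not lower beyond the spread between libraries in any group labelled RNF138-/-. Its mean level was 19.6 ± 4.95 CPM in wild-type and 18.8 ± 0.76 CPM in RNF138-/- colitis, 25.4 ± 3.42 and 43.6 ± 3.41 CPM in CAC, and 48.9 ± 9.78 and 46.9 ± 3.81 CPM in organoids. The groups are therefore named by their labels. All 12 colon libraries and the 3 RNF138-/- organoid libraries held reads of 4 Y-linked genes, while the 3 wild-type organoid libraries held 0, so sex and genotype cannot be told apart in the organoids. Summed levels of 8 pan-epithelial markers were 10142 to 11685 CPM in wild-type colitis, 8792 to 12112 in RNF138-/- colitis, 8275 to 14786 in wild-type CAC and 7112 to 8509.9 in RNF138-/- CAC. In the organoids they were 10105 to 10897 CPM for wild type and 5674 to 8346 for RNF138-/-, and no marker of the list was at 0 in any group. All groups thus held epithelial transcripts. A set of 3 colon libraries stood apart in 4 Hox genes of the distal colon (Hoxb13, Hoxa13, Hoxd13 and Hoxd12). Their summed level was 44.2 CPM in RNF138-/- colitis library 2, 24.0 CPM in RNF138-/- colitis library 3 and 28.8 CPM in wild-type CAC library 3, against 127 to 412 CPM in the other 9 colon libraries. Counts of calls that these 3 libraries enter are given with and without them, while the marker sums and the nearest-gene patterns use all 12 colon libraries.

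Upstream sequences are shown for Slc26a3, Car4 and Aqp8, the members with an entry whose mean levels in RNF138-/- CAC lay furthest below wild type. The 250 bases before the RefSeq transcript start (build GRCm38.p6, plus strand, 5′ to 3′) had entries for 5 of the 10 members, the others being Slc9a3 and Cftr. Capitals mark matches on either strand to short motifs: TTTATG for the CDX2 core, CAAAGTC for HNF4A, GTTAAT for HNF1 and TGTTCT for the glucocorticoid and mineralocorticoid receptors.
Slc26a3, chr12:31437969-31438218: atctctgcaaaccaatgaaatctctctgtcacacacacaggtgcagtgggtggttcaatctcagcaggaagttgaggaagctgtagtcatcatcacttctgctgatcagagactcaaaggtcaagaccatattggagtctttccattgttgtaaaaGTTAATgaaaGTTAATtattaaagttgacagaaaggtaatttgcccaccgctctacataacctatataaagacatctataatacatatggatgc
Car4, chr11:84957504-84957753: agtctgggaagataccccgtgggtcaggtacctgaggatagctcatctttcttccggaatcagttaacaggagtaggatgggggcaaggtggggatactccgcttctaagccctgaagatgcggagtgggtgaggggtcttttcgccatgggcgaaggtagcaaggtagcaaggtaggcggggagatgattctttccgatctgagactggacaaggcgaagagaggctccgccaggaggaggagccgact
Aqp8, chr7:123462044-123462293: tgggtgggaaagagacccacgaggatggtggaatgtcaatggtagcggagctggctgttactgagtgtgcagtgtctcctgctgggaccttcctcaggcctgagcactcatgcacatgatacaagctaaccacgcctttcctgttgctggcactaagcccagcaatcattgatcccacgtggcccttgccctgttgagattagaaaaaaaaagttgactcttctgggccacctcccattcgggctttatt

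The Slc26a3 window held 2 GTTAAT matches, 94 and 84 bases before the start, and the windows of Car4, Aqp8, Slc9a3 and Cftr held no match to any of the 4 motifs. Of 32851 promoters of the same length, 6.43% held GTTAAT, 10.8% TTTATG, 3.84% CAAAGTC and 16.1% TGTTCT. The share of G and C bases was 38.8% in the Slc26a3 window, 52.4% for Aqp8, 56.4% for Car4, 67.6% for Slc9a3 and 76.4% for Cftr. The 3 printed windows thus differed in composition and shared no searched motif. In the GENCODE annotation of the same build, Slc26a3 spans bases 31390871 to 31473917 of chromosome 12, so its window lies inside the span of a longer transcript. Car4 spans bases 84957786 to 84966044 of chromosome 11 and Aqp8 spans bases 123462291 to 123468004 of chromosome 7, so their windows lie just upstream of, or reach, the annotated start.

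The surface carbonic anhydrase genes were among the most abundant members in wild-type colitis. Car1 encodes a cytosolic carbonic anhydrase of colonocytes and Car4 a membrane-anchored form. Per kilobase of exon, Car1 averaged 599.9 ± 256 reads per kilobase per 1000000 (RPKM), Aqp8 589 ± 70.6, Car4 419 ± 59 and Slc26a3 157 ± 40.5 RPKM in wild-type colitis, while Cftr was lowest at 15.1 ± 3.25. The ranges of Car1 and Aqp8 overlapped, so their order is within the spread. Car4 stood at 857, 695 and 919.9 CPM in the wild-type colitis libraries, 1127, 519.9 and 416 in RNF138-/- colitis and 422, 398 and 1264 in wild-type CAC. It stood at 4.57, 1.01 and 18.3 CPM in RNF138-/- CAC, that is 86, 25 and 405 counts. All 9 other colon libraries lay far above the 3 RNF138-/- CAC libraries. In organoids Car4 was close to absent, with 3, 2 and 2 counts in the wild-type and 12, 9 and 11 counts in the RNF138-/- libraries.

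Car1 varied widely between libraries of a group. It stood at 807, 404 and 1036 CPM in wild-type colitis and 659, 3722 and 4005 CPM in RNF138-/- colitis. In CAC it stood at 586, 350.1 and 8350.3 CPM in the wild-type and 102, 52.7 and 84.5 CPM in the RNF138-/- libraries. The 3 highest values belonged to the 3 libraries low in distal Hox genes, and the 3 RNF138-/- CAC libraries were below every other colon library. Organoids held Car1 at 339, 145 and 157 CPM for wild type and 207, 126 and 192 CPM for RNF138-/-, with overlapping ranges. Car1 (chromosome 3, bases 14766216 to 14808368) shares 13.4% of its 50-base exon windows with the predicted gene Gm5843, so part of its count is uncertain.

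The anion exchangers of the apical membrane differed in their levels in RNF138-/- CAC. Slc26a3, the gene of the chloride-bicarbonate exchanger that is defective in congenital chloride diarrhea, stood at 979, 755 and 1269 CPM in wild-type colitis and 602, 479 and 264 CPM in RNF138-/- colitis. In CAC it stood at 443, 382 and 437 CPM in the wild-type and 3.4, 0.526 and 31.4 CPM in the RNF138-/- libraries. Its ranges were separate between genotypes in both models, and the RNF138-/- CAC libraries differed among themselves many-fold. Slc26a2, which encodes a sulfate transporter, stood at 569, 416 and 727 CPM in wild-type colitis and 246, 400.4 and 474 in RNF138-/- colitis. It stood at 604, 491 and 599.5 CPM in wild-type CAC and 82.6, 49.7 and 110.5 in RNF138-/- CAC. Slc26a2 thus remained well detected where Slc26a3 was scarce. In organoids Slc26a3 was at 1.04 to 3.91 CPM for wild type and 2.66 to 3.88 for RNF138-/-, and Slc26a2 at 58.7, 41.3 and 84.1 CPM and 103, 91.1 and 115 CPM.

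The sodium uptake genes took different courses. Slc9a3 (chromosome 13, bases 74121457 to 74169442) ranged over 243 to 445 CPM in wild-type colitis, 196 to 541 in RNF138-/- colitis, 255 to 667 in wild-type CAC and 169.6 to 526 in RNF138-/- CAC, so that all 4 colon groups overlapped. It was the highest member per kilobase in RNF138-/- CAC, at 70.3 ± 34.7 RPKM, although its range overlapped those of Car1 and Slc12a2 there, and stood lower, at 9.01 to 24.8 and 9.2 to 15.1 CPM in wild-type and RNF138-/- organoids. Scnn1a (chromosome 6, bases 125320659 to 125344943) stood at 174, 128 and 145 CPM in wild-type colitis and 130.4, 93.4 and 32.2 in RNF138-/- colitis. In CAC it stood at 115, 101 and 114 CPM in the wild-type and 35.3, 21.6 and 44.4 CPM in the RNF138-/- libraries. The CAC ranges were separate, whereas RNF138-/- colitis library 3 alone of the colitis libraries fell within the range of RNF138-/- CAC. Organoid levels of Scnn1a were 16.6 to 27.3 and 20.9 to 31.3 CPM.

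Aqp8, the gene of a water channel of surface colonocytes, had the largest fold difference between genotypes in CAC. It stood at 953, 810.1 and 1030.2 CPM in wild-type colitis and 1721, 532 and 96.7 CPM in RNF138-/- colitis, where the 3 libraries spread widely. Wild-type CAC libraries held 201, 306 and 329.7 CPM and RNF138-/- CAC libraries held 0.691, 0.526 and 2.49 CPM, or 13, 13 and 55 counts. The organoids were as low, at 1.27 to 2.16 CPM for wild type and 1.47 to 2.01 for RNF138-/-. Atp12a, the gene of the colonic proton-potassium pump, stood at 88.1, 109 and 75 CPM in wild-type colitis and 98.8, 4.67 and 13.7 in RNF138-/- colitis. It stood at 268, 109.9 and 5.77 CPM in wild-type CAC and 29.4, 17.3 and 51.7 in RNF138-/- CAC. Its 3 lowest colon values belonged to the 3 libraries low in distal Hox genes, the reverse of Car1. In organoids Atp12a was 15.2, 5.1 and 10.9 CPM for wild type and 45.1, 26.5 and 43.6 CPM for RNF138-/-, without overlap. Atp12a (chromosome 14, bases 56365068 to 56388550) overlaps the opposite-strand gene Gm10873 over 557 exonic bases, and whether counting used strand is not given, so reads of the pair cannot be told apart.

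The chloride secretion genes parted in CAC. Slc12a2 stood at 419, 421 and 472 CPM in wild-type colitis and 241, 403 and 397 in RNF138-/- colitis. It stood at 296, 363 and 208 CPM in wild-type CAC and 569, 694 and 731 in RNF138-/- CAC. The RNF138-/- CAC libraries were the 3 highest of all 18, and the organoids spanned 233 to 526 CPM for wild type and 321 to 456 CPM for RNF138-/-. Cftr (chromosome 6, bases 18170687 to 18322768) ranged over 102 to 146 CPM and 44.4 to 111 CPM in wild-type and RNF138-/- colitis, 71.2 to 98.2 and 23.7 to 48.3 CPM in CAC, and 0.797 to 3.44 and 1.49 to 1.75 CPM in organoids. Cftr was therefore near the floor in culture, where Slc12a2 lay within the range of the colon libraries. Cftr overlaps the opposite-strand gene Gm15592 over 129 exonic bases.

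**Figure D1:**
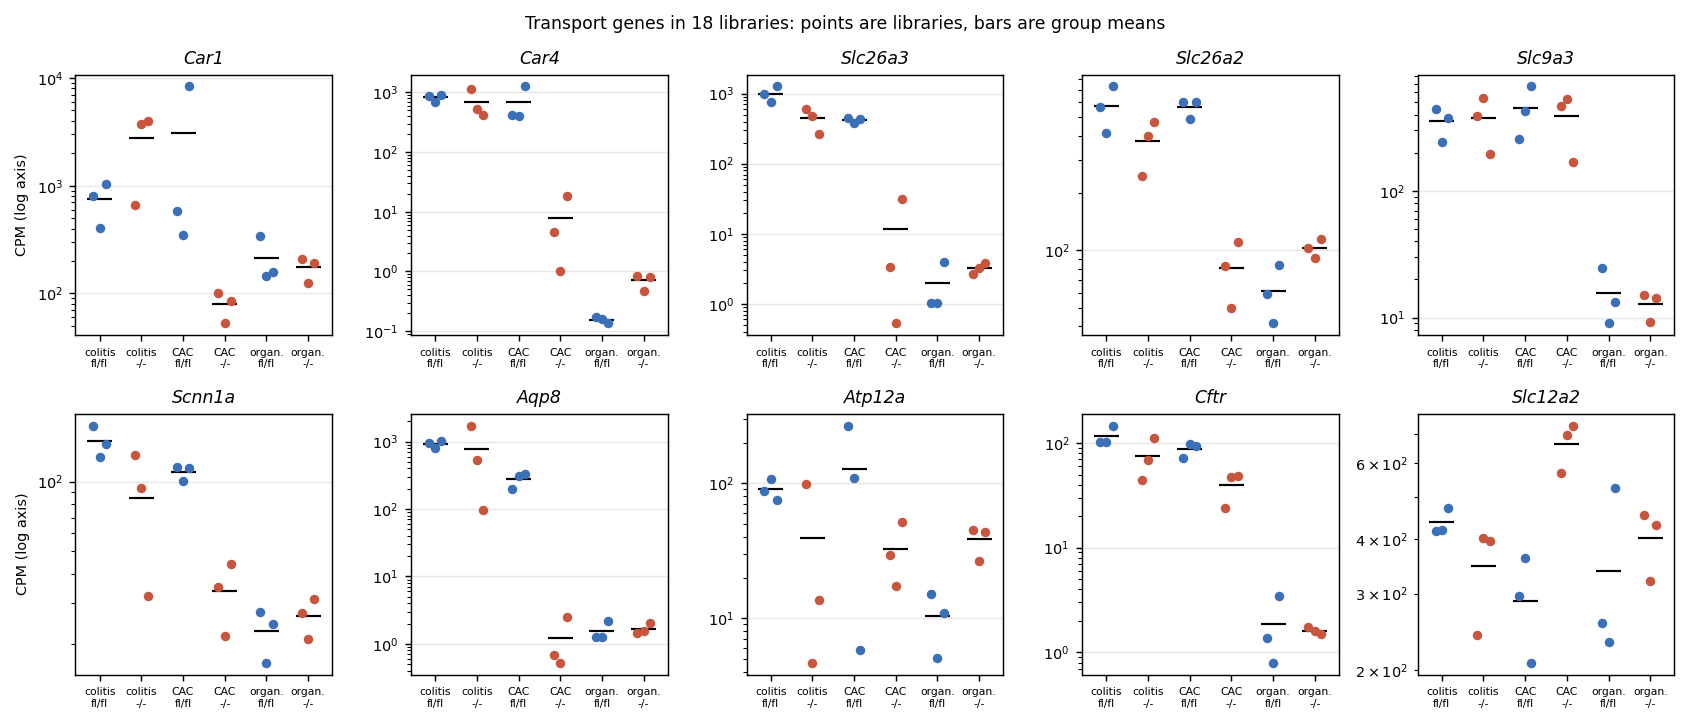
Level of each of the 10 transport genes in CPM on a log axis, by group, with wild type (fl/fl) in blue and RNF138-/- in red; points are libraries and bars are means of 3. In RNF138-/- CAC, Car4, Slc26a3 and Aqp8 stood at or below 31.4 CPM, Slc12a2 was at its highest and Slc9a3 overlapped the other colon groups.

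In CAC, transport genes differed between genotypes in both directions. Car4, Slc26a2, Scnn1a and Aqp8 were lower in the libraries labelled RNF138-/- and Slc12a2 was higher, so that 4 of 10 members passed the thresholds downward and 1 upward. The thresholds were an adjusted p under 0.05 in edgeR's quasi-likelihood test with Benjamini-Hochberg adjustment over all genes tested, and a fold change of at least 2. Of all genes tested in this comparison, 4.83% were called lower and 0.546% higher. The median log2 fold change was -2.43 over the 10 members and 0.0056 over all genes. Fewer surface colonocytes in a sample and less RNA of a gene per colonocyte cannot be told apart in bulk tissue.

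Aqp8 was 234-fold lower, with a log2 fold change of -7.87 ± 0.68 (SE; 95% interval -9.50 to -6.23) and an adjusted p of 0.0168. Car4 was 91.2-fold lower (log2 -6.51 ± 1.2, adjusted p = 0.0377). Slc26a2 was 7.25-fold lower (log2 -2.86 ± 0.32, adjusted p = 0.0198) and Scnn1a 3.38-fold lower (log2 -1.76 ± 0.27, adjusted p = 0.0285). The calls downward thus took in a water channel, a carbonic anhydrase, a sulfate transporter and a sodium channel subunit. In the other direction Slc12a2 was 2.22-fold higher (log2 1.15 ± 0.24, adjusted p = 0.0447). A further 3 members had separate ranges but did not pass, namely Car1 (log2 -5.35 ± 1.37, adjusted p = 0.061), Slc26a3 (-5.21 ± 1.35, adjusted p = 0.0623) and Cftr (-1.19 ± 0.30, adjusted p = 0.0586). Cftr passed with DESeq2 (adjusted p = 0.00508) and with the replicate block in edgeR (0.0322), and Slc26a3 passed with limma voom (0.0288). All 3 passed in edgeR without the low-count filter and with all 18 libraries in 1 fit (adjusted p from 0.00174 to 0.0438). DESeq2 gave no adjusted p for Car1 and Slc26a3. In edgeR, Slc12a2 lost its call with the replicate block (adjusted p = 0.0583) and without TMM scaling (0.0529). Counting by separation alone, 7 members were lower and 1 higher in every RNF138-/- CAC library, where 20.7% of all genes tested were lower and 24.5% higher without overlap. Each such member has an exact permutation p of 0.1 (two-sided), the smallest that 3 against 3 allows. Slc9a3 (log2 -0.28 ± 0.51, 95% interval -1.49 to 0.94), whose sign turned to positive without TMM scaling (0.042) and with scaling to epithelial counts (0.36), and Atp12a (-2.0 ± 1.10, 95% interval -4.64 to 0.63) overlapped between genotypes. Those scalings raised the log2 fold changes of all genes by a median of 0.27 and 0.58, so Slc9a3 stayed below the median of all genes under both.

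The number of members that passed downward in CAC changed with the libraries left out. It fell from 4 to 0 without RNF138-/- library 1 and likewise without RNF138-/- library 2, and to 2 without wild-type library 1. It was 3 without wild-type library 2 or RNF138-/- library 3. Without wild-type library 3, the library low in distal Hox genes, it was 6, where 5.25% of all genes were called lower. That share was not computed for the other fits, so a fall in these counts cannot be told from a general loss of calls. Slc12a2 lost its call when any CAC library other than wild-type library 2 was left out, its log2 fold change staying between 0.98 and 1.36. Where no member passed downward the fold changes stayed large, at -7.60 for Aqp8, -6.24 for Car4, -2.87 for Slc26a2 and -1.79 for Scnn1a without RNF138-/- library 1, and at -7.47, -5.97, -2.58 and -1.50 without RNF138-/- library 2. Without RNF138-/- library 3, Car4 stood at -8.01, Aqp8 at -8.87 and Slc26a3 at -7.80, the last then past the threshold (adjusted p = 0.0468), and without wild-type library 3 Car4 stood at -5.72. With the summed level of Y-linked genes as a covariate 0 members were called, at log2 fold changes of -8.57 for Aqp8, -7.95 for Car4, -3.31 for Slc26a2 and -2.17 for Scnn1a. The CAC libraries of both genotypes all held Y-linked reads, at summed levels of 148 to 228 CPM. This covariate therefore does not divide the CAC libraries by sex. No fold change of the 5 called members changed sign when 1 library was left out, and with 1 library fewer the adjusted p of Aqp8 reached at most 0.111. Without wild-type library 3, Car1 and Atp12a joined the calls, at log2 fold changes of -2.58 (adjusted p = 0.0144) and -2.55 (adjusted p = 0.0402), while Slc12a2 fell under the fold minimum at 0.98 (adjusted p = 0.0322).

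**Figure D2:**
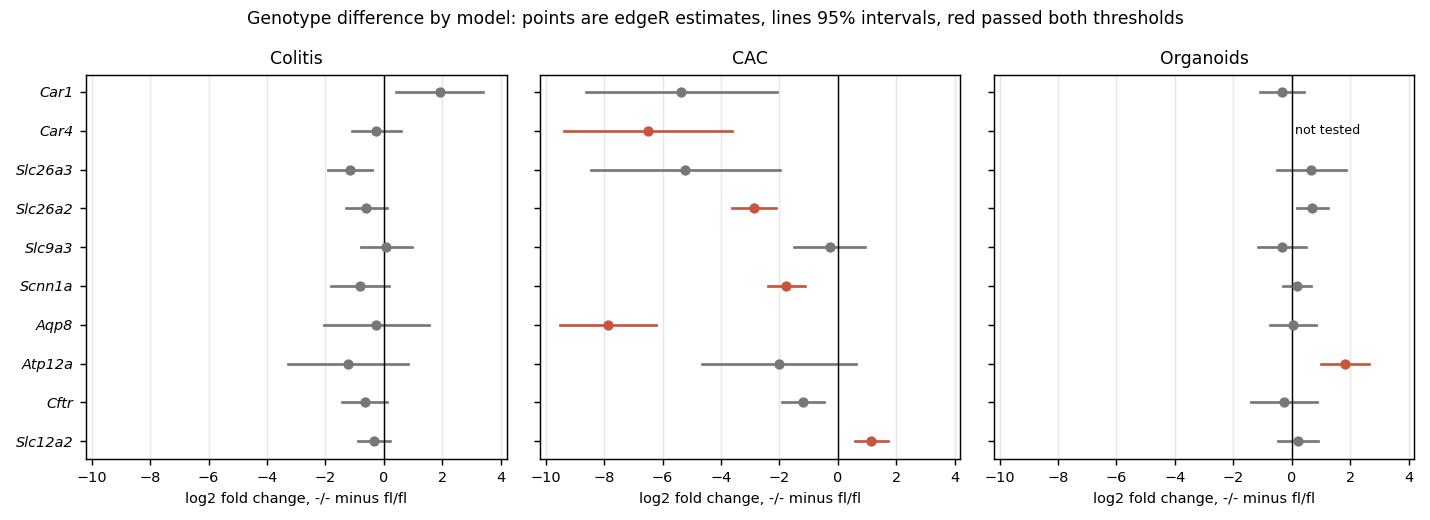
Log2 fold change between genotypes (RNF138-/- minus wild type) of the 10 members in colitis, CAC and organoids; points are edgeR estimates, lines 95% intervals, and red marks members past both thresholds. In CAC, 4 members lie below 0 and Slc12a2 above 0 in red, in colitis none is red, and in organoids only Atp12a is.

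Other cell types moved with genotype in CAC. In the RNF138-/- libraries the summed level of 6 smooth muscle markers was 113 to 242 CPM against 2506 to 8379.6 CPM in wild type, that of 6 B and plasma cell markers 125 to 215 against 1504 to 2264 CPM, and that of 6 goblet cell markers 1254 to 2342 against 12763 to 41449.5 CPM. The 5 stem and progenitor markers went the other way, with 839 to 1112 CPM against 61.6 to 368 CPM. The 5 fat markers were 15.4 to 16.2 CPM against 54.8 to 98.6 CPM, with Adipoq and Lep at 0 in RNF138-/- CAC, and no other marker of these lists was at 0 there. The 8 pan-epithelial markers differed far less, as given above. Expressed per 1000 pan-epithelial counts, Car4 was 56.3 ± 26 in wild-type and 1.06 ± 1.26 in RNF138-/- CAC, Aqp8 25.4 ± 10.4 and 0.164 ± 0.15, Slc26a3 37.7 ± 8.33 and 1.58 ± 2.33, and Slc26a2 50.2 ± 9.4 and 10.6 ± 4.08. The 4 genes thus stood lower relative to epithelial transcripts as well, Slc26a3 without a call by TMM or by scaling to the epithelial counts (log2 -4.58, adjusted p = 0.0513). Scnn1a was 9.86 ± 2.23 and 4.4 ± 1.51 on that scale, and scaling the fit to the epithelial counts ended its call (log2 -1.16, adjusted p = 0.0732) and that of Slc12a2 (log2 1.67, adjusted p = 0.0513), while Car1 gained one (log2 -4.41, adjusted p = 0.0336). The median over all genes was 0.59 in that scaling, so its values are to be read against that level. A list of 5 small intestine markers summed to 14 to 25.4 CPM in RNF138-/- and 76.9 to 458 CPM in wild-type CAC, none at 0, and its highest colon values were 493 CPM in RNF138-/- colitis library 3 and 458 CPM in wild-type CAC library 3. The part of the cell type makeup in these results was not tested.

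**Figure D3:**
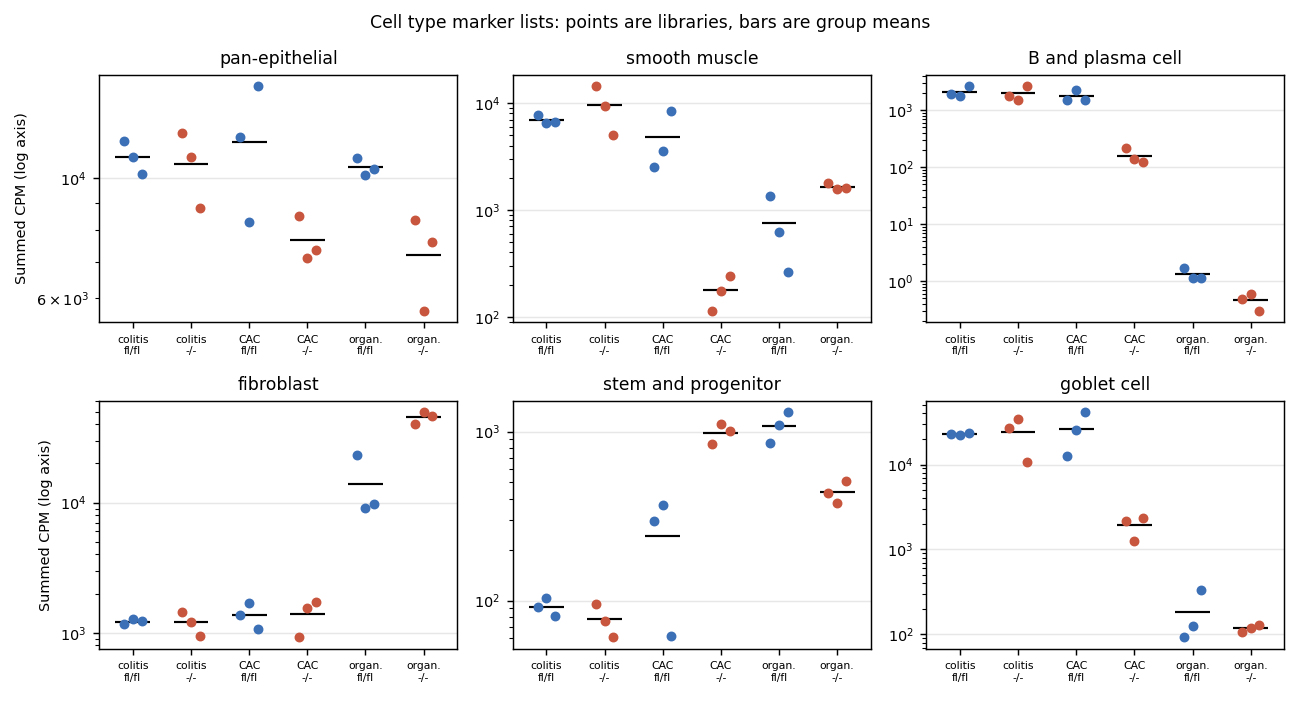
Summed CPM of 6 marker lists on log axes, by group, with wild type (fl/fl) in blue and RNF138-/- in red; points are libraries and bars are means of 3. Smooth muscle, B and plasma cell and goblet lists are lower, and the stem and progenitor list higher, in RNF138-/- CAC than in wild-type CAC, and the fibroblast list is highest in the organoids.

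The wider set of 53 transport genes, fixed with earlier results known and holding none of the 10 members, had 7 genes called lower and 0 higher in RNF138-/- CAC, of 48 tested, where 4.83% of all genes were called lower and 0.546% higher. At an unadjusted p under 0.05 there were 25 of either direction, against 33.8% of all genes, and DESeq2 called 17 lower and 1 higher, against 10.8% and 3.15% of all genes it tested. By role, the carbonic anhydrases gave 1 call of 6 tested, Car3 (log2 -6.11 ± 0.81, adjusted p = 0.0249), which is best known from muscle and fat. Car3 passed the low-count filter through the wild-type libraries, since 1 RNF138-/- CAC library reached the filter level, so a rise of it could not have been called. The anion and bicarbonate transporters gave 1 of 11, the chloride channel gene Clcn2 (-1.97 ± 0.44, adjusted p = 0.0497). The sodium uptake genes gave 1 of 6, the sodium-hydrogen exchanger gene Slc9a2 (-4.03 ± 0.72, adjusted p = 0.0358), and the water channels 1 of 3, Aqp4 (-2.95 ± 0.37, adjusted p = 0.0234). The adaptor and aldosterone response group gave 2 of 8: Slc9a3r1, the scaffold of the sodium-hydrogen exchanger (-1.96 ± 0.42, adjusted p = 0.0478), and Nr3c2, the mineralocorticoid receptor (-2.16 ± 0.28, adjusted p = 0.0246). Guca2a, the gene of the gut peptide guanylin, was the call of 4 guanylin signal genes (-4.51 ± 0.87, adjusted p = 0.0404). None of 5 sodium-potassium pump genes and none of 5 potassium channel and chloride secretion genes was called. The median log2 fold change of the 48 genes was -0.64, against 0.0056 over all genes. The number called lower fell to 0 without RNF138-/- library 1 or 2, to 1 without RNF138-/- library 3 and to 3 without wild-type library 1. The share of all genes called in these fits was not computed. Genes called higher numbered 2 without wild-type library 2 and 1 without wild-type library 3, which also left 7 called lower. Without wild-type library 3, Guca2a stood at -3.14, Slc9a2 at -2.94, Clcn2 at -1.28 and Slc9a3r1 at -1.34. Clcn2 lost its call with RLE size factors, the stricter filter, limma voom, the replicate block and epithelial scaling (adjusted p from 0.0506 to 0.0636), and Slc9a3r1 with the block (0.0621) and with epithelial scaling (0.0506).

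**Figure D4:**
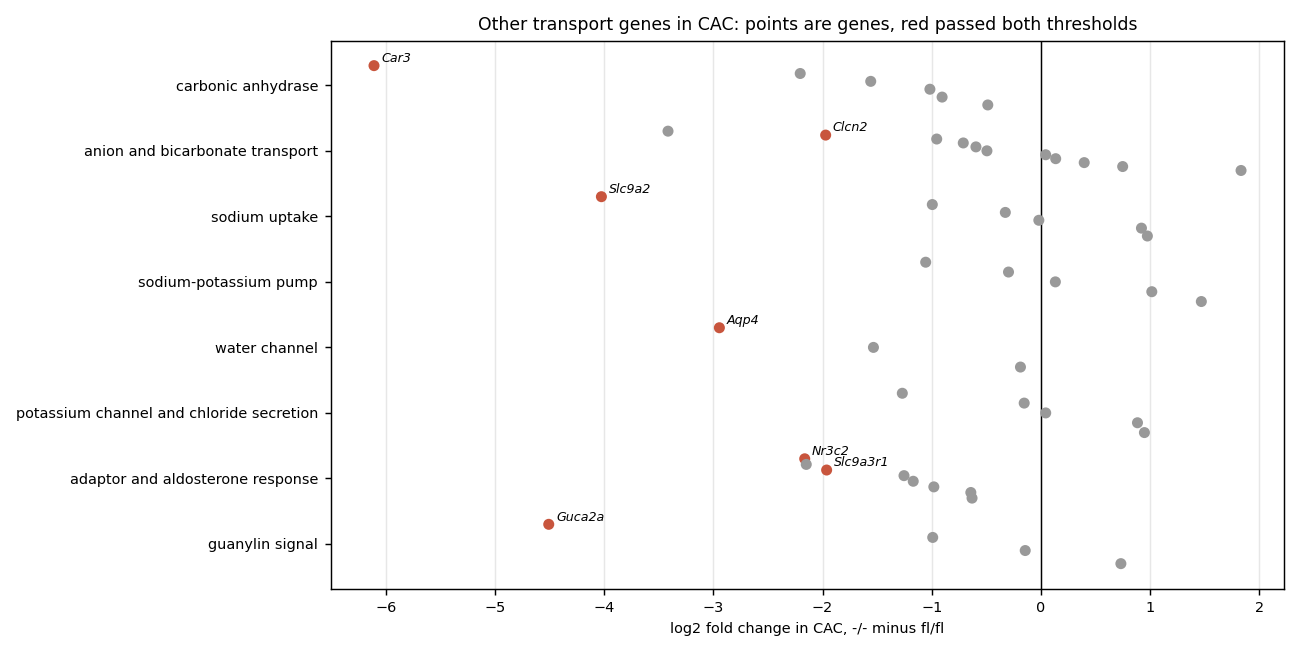
Log2 fold change in CAC (RNF138-/- minus wild type) of the 48 tested genes of the wider transport list, by role; points are genes and red marks those past both thresholds. The 7 red points all lie left of 0, from -6.11 for Car3 to -1.96 for Slc9a3r1.

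The comparison of genotypes in colitis gave no call among the members. Of all genes tested, 0.0722% were called lower and 0.018% higher by edgeR's quasi-likelihood test, and 0 of 10 members in either direction. At an unadjusted p under 0.05 there were 2 members, against 10.4% of all genes tested. These were Car1 (log2 1.91 ± 0.64, adjusted p = 0.356 in edgeR) and Slc26a3 (-1.16 ± 0.33, adjusted p = 0.262 in edgeR). DESeq2 called 1 member higher and 1 lower, where it called 1.24% of all genes higher and 0.831% lower. Limma voom called 0, and edgeR with the low-count filter dropped called 1 in each direction. The share of all genes called in those 2 fits was not computed. Without overlap of ranges, 2 members were lower, Slc26a3 and Slc12a2 (log2 -0.33 ± 0.24), and 0 higher, where 8.32% of all genes tested were lower and 8.87% higher. The 95% interval held a 2-fold drop for 6 of the other 7 members, from Car4 (-1.11 to 0.57) to Atp12a (-3.29 to 0.84), and not for Slc9a3 (-0.78 to 0.95).

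Distal Hox gene levels moved with these colitis values. RNF138-/- libraries 2 and 3 were the libraries low in distal Hox genes, and without them 1 RNF138-/- library remained, assumed to vary like the wild-type libraries. In that fit Car1 had a log2 fold change of -0.22, Car4 0.42, Aqp8 0.85 and Atp12a 0.093. Each was opposite in sign to the fit of all 6 libraries (1.91, -0.27, -0.26 and -1.22). The other members kept their sign. Slc26a3 stood at -0.77, Scnn1a at -0.23 and Slc9a3 at 0.11. Slc26a2 (-1.25), Cftr (-1.44) and Slc12a2 (-0.89) lay further below 0 than with all libraries (-0.61, -0.65 and -0.33). The 53 transport genes gave 0 calls of 45 tested with all libraries, and a median log2 fold change of -0.061. At an unadjusted p under 0.05 in edgeR there were 8, against 10.4% of all genes. DESeq2 called 1 of the list genes higher and 2 lower, against 1.24% and 0.831% of all genes it tested. Counts of list genes called by edgeR rose to 1 higher and 2 lower without RNF138-/- library 3, and to 1 higher without RNF138-/- library 1. The share of all genes called in these fits was not computed.

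**Figure D5:**
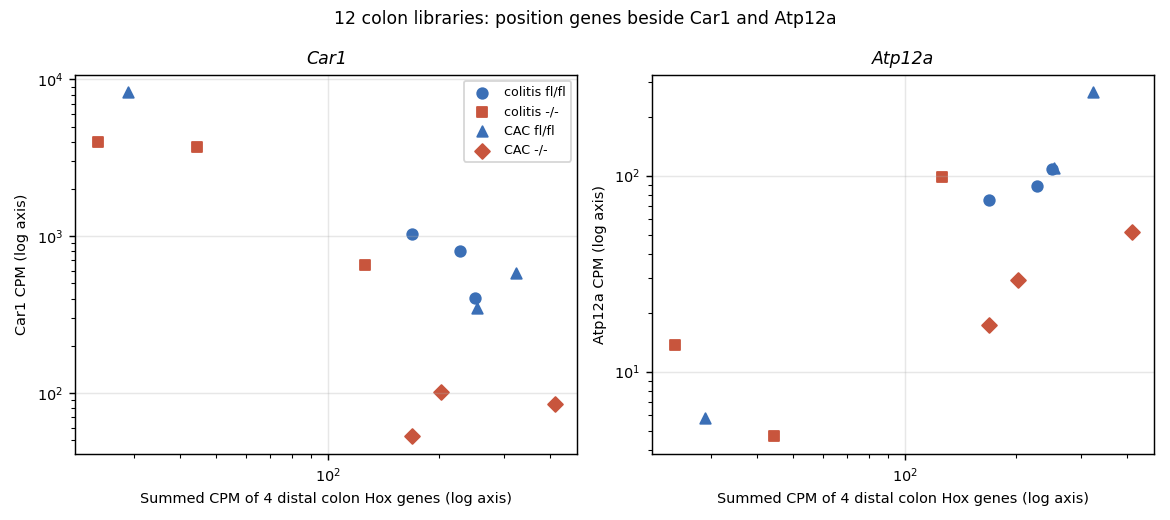
Car1 (left) and Atp12a (right) in CPM against the summed CPM of 4 distal colon Hox genes in the 12 colon libraries, all axes on log scales; symbols are libraries by model and color is genotype. The 3 libraries at 24.0 to 44.2 summed CPM have the highest Car1 and the lowest Atp12a of the 12.

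The genotype difference itself differed between CAC and colitis for 5 members. In a fit of the 12 colon libraries, CAC minus colitis, it was -7.18 ± 1.54 (log2) for Car1 (adjusted p = 0.0185), -6.19 ± 1.17 for Car4 (0.0114), -7.56 ± 1.21 for Aqp8 (0.00558) and -2.19 ± 0.46 for Slc26a2 (0.0164), all downward, and 1.54 ± 0.35 for Slc12a2 (0.0235) upward. Of all genes tested, 7.23% passed downward and 1.1% upward. Without the 3 libraries low in distal Hox genes, RNF138-/- colitis is 1 library, assumed to vary like the other groups. Then 5 members passed downward and 1 upward, where 7.35% and 2.97% of all genes did, with Car1 at -2.45 (adjusted p = 0.037), Aqp8 at -8.64 and Slc26a2 no longer past the threshold at -1.63 (adjusted p = 0.0684). The call of Slc12a2 was lost without any wild-type colitis library in turn or without RNF138-/- CAC library 2, when its adjusted p was 0.0542 to 0.0601. The call of Car1 was lost without wild-type colitis library 1 or 2 or RNF138-/- CAC library 2, with adjusted p from 0.0548 to 0.0571.

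The comparison of CAC with colitis asked how the genes stood once AOM was added, and model cannot be told apart from any difference in how or when the libraries were made. In wild type, 0 of 10 members passed, where 3.04% of all genes tested were called lower and 8.41% higher by edgeR's quasi-likelihood test. At an unadjusted p under 0.05 there were 2 members, Aqp8 and Slc12a2, against 30.9% of all genes tested, a larger share. Limma voom and DESeq2 also called 0 members. The fit shares its spread over all 12 colon libraries, and without RNF138-/- colitis library 3, or without the 3 libraries low in distal Hox genes, 1 member was called lower. In the RNF138-/- libraries, 6 members passed downward and 0 upward, where 19.6% and 17.1% of all genes tested did. These were Aqp8 (log2 -9.30 ± 1.08, adjusted p = 9.28e-05), Car4 (-6.43 ± 0.96, adjusted p = 0.000348), Slc26a3 (-5.25 ± 1.06, adjusted p = 0.00184), Car1 (-5.13 ± 1.17, adjusted p = 0.00365), Slc26a2 (-2.21 ± 0.33, adjusted p = 0.000365) and Scnn1a (-1.34 ± 0.40, adjusted p = 0.016). The median log2 fold change of the members was -1.77 in RNF138-/- and -0.33 in wild type, against 0.042 over all genes in both. Cell type markers moved between the models as well. From RNF138-/- colitis to RNF138-/- CAC, the 6 smooth muscle markers went from 4993 to 14526 to 113 to 242 CPM, the 6 goblet cell markers from 10705 to 34272 to 1254 to 2342 and the 6 B and plasma cell markers from 1536 to 2682 to 125 to 215, none of them at 0. The 5 stem and progenitor markers went from 60.7 to 95.9 to 839 to 1112 CPM, and the part of these shifts in the result was not tested. Leaving out the 3 libraries low in distal Hox genes left 1 RNF138-/- colitis library, assumed to vary like the other groups. In that fit 7 members were called lower and 1 higher in RNF138-/-, where 20.4% and 18% of all genes were, and Car1 moved to -3.13. Without RNF138-/- colitis library 2 or 3 or RNF138-/- CAC library 1, 1 member was called higher, and Scnn1a lost its call without RNF138-/- colitis library 1 (-0.92) or RNF138-/- CAC library 2 (-1.09). It also lost it without TMM scaling (-0.99) and with the Y-linked covariate (-0.84), both under the fold minimum, and with epithelial scaling (-0.80, adjusted p = 0.0769).

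In the wider list, 7 of 50 tested genes rose and 3 fell between colitis and CAC in wild type, where 8.41% of all genes were called higher and 3.04% lower. In RNF138-/-, 7 rose and 23 fell, where 17.1% and 19.6% of all genes did. Without the 3 libraries low in distal Hox genes 10 list genes rose in RNF138-/- and 8 in wild type, where 18% and 11% of all genes did. Slc26a9, Slc4a5, Scnn1g and Fxyd4 passed the low-count filter through the CAC libraries, so for them a fall could not have been called. Over the same groups 6 squamous epithelium markers summed to 1.55 to 2.23 CPM in wild-type colitis, with Krt6a at 0, 1.96 to 9.5 in RNF138-/- colitis, 4.16 to 48.1 in wild-type CAC and 27.5 to 141 in RNF138-/- CAC, and their part in these genes was not tested. Clca4b, a member of the calcium-activated chloride channel regulator family, went from 0.79 ± 0.0552 to 447 ± 571 CPM in wild type (adjusted p = 0.00187) and from 13.6 ± 15.4 to 504 ± 344 CPM in RNF138-/- (adjusted p = 0.00329). Slc26a9, an anion transporter best known from stomach and airway, went from 0.0206 ± 0.0357 to 4.3 ± 3.84 CPM in wild type and from 0.0172 ± 0.0298 to 16.2 ± 5.62 in RNF138-/-. Scnn1g, the gamma subunit of the sodium channel, went from 0.136 ± 0.0425 to 5.16 ± 4.57 CPM in wild type and from 0.406 ± 0.50 to 10.6 ± 11.7 in RNF138-/-, with no call upward for Scnn1a. Scnn1b, the beta subunit, rose in RNF138-/- (log2 2.14 ± 0.76, adjusted p = 0.0339). Fxyd3 and Fxyd4, regulators of the sodium-potassium pump, rose in both genotypes, with log2 fold changes of 1.83 ± 0.52 and 4.59 ± 1.11 in wild type and 3.77 ± 0.56 and 4.81 ± 1.03 in RNF138-/-, and so did the bicarbonate cotransporter gene Slc4a5. Car3, at the filter level in 2 of 3 wild-type colitis libraries, rose in wild type alone of the carbonic anhydrases (log2 4.27 ± 1.17, adjusted p = 0.0312). Those that fell in wild type were Car7 (-1.28 ± 0.33), the scaffold gene Slc9a3r2 (-1.31 ± 0.25) and Guca2b, the gene of uroguanylin (-1.43 ± 0.33).

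The 23 genes that fell in RNF138-/- libraries between colitis and CAC took in 6 of 7 carbonic anhydrases tested, led by Car3 (-5.0 ± 1.26) and Car14 (-3.04 ± 0.69), which passed the low-count filter through other groups, so that a rise could not have been called, and 6 of 8 adaptor and aldosterone response genes, led by Slc9a3r1 (-2.60 ± 0.43) and Hsd11b2 (-2.23 ± 0.53), the enzyme that keeps glucocorticoid from the mineralocorticoid receptor. Of the water channels 3 of 4 fell, led by Aqp4 (-2.37 ± 0.44), and of the guanylin genes 2 of 4, Guca2a (-6.23 ± 0.76) and Guca2b (-1.78 ± 0.33). Among exchangers and channels, Slc9a2 (-4.02 ± 0.55), Clca4a (-3.61 ± 0.94), Clcn2 (-1.71 ± 0.39), Slc4a2 (-1.52 ± 0.35) and Kcnma1 (-1.76 ± 0.29) fell. Without the 3 libraries low in distal Hox genes the number falling was 15 in RNF138-/-, then with 1 colitis library, and 6 in wild type, where 20.4% and 5.49% of all genes fell. Of the 6 carbonic anhydrases Car7 alone then passed (-1.37, adjusted p = 0.0331), with Car3 at -1.51 (adjusted p = 0.213) and Car14 at -1.98 (adjusted p = 0.055). Hsd11b2 stood at -1.38 (adjusted p = 0.105), while Slc9a3r1 (-3.15), Aqp4 (-2.93), Guca2a (-6.82), Slc9a2 (-4.19) and Clca4a (-4.26) passed. In wild type the number that rose was 3 without wild-type colitis library 1 or 2 or wild-type CAC library 1, when 1 fell, and 5 fell without wild-type CAC library 3. The wild-type calls of Car3, Car7, Scnn1g, Fxyd3, Fxyd4 and Guca2b were each lost without wild-type colitis library 1 or 2 or wild-type CAC library 1, those of Car3, Car7, Fxyd3 and Guca2b also without wild-type CAC library 2, those of Car3 and Fxyd4 without wild-type colitis library 3, and that of Fxyd3 without RNF138-/- CAC library 2. In RNF138-/-, Scnn1b lost its call without colitis library 1 or 2 or CAC library 3, where it stood at 1.12 without the last.

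Organoids differed from CAC tissue in more members in wild type than in RNF138-/-, a contrast that was not tested itself. Car1 was the highest member per kilobase in both, at 171 ± 87.2 RPKM in wild-type and 140.3 ± 34.9 RPKM in RNF138-/- organoids. Against wild-type CAC tissue, 9 of 10 members were lower in wild-type organoids and 0 higher, where 26.3% of all genes tested were called lower and 17.7% higher. Wild-type CAC tissue held Y-linked reads and wild-type organoids held 0, so sex and culture cannot be told apart in this comparison. Against RNF138-/- CAC tissue, 3 were lower in RNF138-/- organoids, namely Slc9a3 (log2 -4.91 ± 0.56, adjusted p = 2.34e-05), Cftr (-4.62 ± 0.44, adjusted p = 7.61e-06) and Car4 (-3.48 ± 0.95, adjusted p = 0.00729), where 26.7% of all genes tested were called lower and 18.5% higher, a share near that of the members. Car4 passed the low-count filter through CAC tissue alone, so in both genotypes a rise of it in organoids could not have been called, and limma voom did not call it in RNF138-/- (log2 -2.59, adjusted p = 0.131). Car1 stood above RNF138-/- CAC tissue in all 3 RNF138-/- organoid libraries without passing (log2 1.14 ± 0.91, adjusted p = 0.289). Slc9a3 and Cftr were also lower in wild-type organoids, at -4.86 ± 0.56 and -5.55 ± 0.45, and Slc12a2 was the member not called there (log2 0.21, 95% interval -0.46 to 0.87). Without wild-type CAC library 3 and the other libraries low in distal Hox genes, 9 members were again lower in wild-type organoids, with Car1 at -1.13 (adjusted p = 0.0287) in place of -3.89. For the RNF138-/- organoids 1 member was called higher without wild-type CAC library 3 and likewise without RNF138-/- CAC library 3. The cultures also held other transcripts: 6 fibroblast markers summed to 9088 to 23215 CPM in wild-type and 40387 to 49632 CPM in RNF138-/- organoids, against 923 to 1732 CPM in colon tissue, with none at 0. Goblet cell markers summed to 92.6 to 337 and 107 to 129 CPM. Their part in these differences was not tested.

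Between the organoid genotypes, Atp12a was the member that passed. It was 3.57-fold higher in the RNF138-/- organoids (log2 1.84 ± 0.36, 95% interval 1.01 to 2.66, adjusted p = 0.00745), and higher in 3 of 3 libraries. Of all genes tested, 7.94% were called higher and 7.04% lower, so 1 of 9 tested members is near that background. Slc26a2 was higher below the fold minimum (log2 0.71 ± 0.23, adjusted p = 0.0418). Car4 did not pass the low-count filter and the other 7 did not pass, with adjusted p from 0.329 to 0.919. Members called higher numbered 2 without wild-type library 1, wild-type library 2 or RNF138-/- library 2. They numbered 4 without wild-type library 3, among them Slc26a2 (log2 1.0) and Slc26a3 (1.61). The share of all genes called higher in these fits was not computed, so these counts cannot be set against a background. When all 18 libraries shared 1 fit, the adjusted p of Atp12a was 0.215 and 0 members were called. The 5 stem and progenitor markers summed to 379 to 509 CPM in RNF138-/- organoids and 854 to 1303 CPM in wild-type organoids, with Olfm4 at 0 in the latter. The 6 myeloid markers summed to 100.4 to 151 and 23.8 to 34.6 CPM, none at 0, and the part of these markers in the organoid differences was not tested.

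Of the 53 wider genes, 48 were tested between organoid genotypes, 1 was called higher and 4 lower, with a median log2 fold change of -0.048. Set against the 7.94% and 7.04% of all genes, the number lower is near the background and the number higher below it, so the genes named next are a description of single genes. The potassium channel gene Kcnma1 was higher (log2 1.66 ± 0.50, adjusted p = 0.0341). Scnn1b (-1.09 ± 0.16, adjusted p = 0.00287) and Scnn1g (-1.18 ± 0.22, adjusted p = 0.00669), the partner subunits of Scnn1a, were lower, as were the sulfate transporter gene Slc26a1 (-1.61 ± 0.44, adjusted p = 0.0249; 2 of 3 RNF138-/- libraries reached the filter level) and Fxyd3 (-1.36 ± 0.23, adjusted p = 0.00452). Scnn1a itself did not pass (log2 0.17 ± 0.21, 95% interval -0.31 to 0.66). The number higher was 4 without wild-type library 1 and 0 without wild-type library 3 or any RNF138-/- library in turn, and Slc26a1 lost its call without wild-type library 3 or RNF138-/- library 1 or 2.

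The members' patterns over the 12 colon libraries were compared as the root-mean-square difference of centred log2 CPM, among 12358 genes with a mean of at least 5 CPM. These are descriptions over libraries that share genotype and model. Car4 and Slc26a3 were the closest pair of members, at 0.593. The gene nearest to Car4 was Cnn1, at 0.575, and those nearest to Aqp8 were Des (0.827) and Cnn1 (0.869). Cnn1 and Des are smooth muscle genes, so these members and the smooth muscle markers were low in the same libraries. Car1 was nearest to Mep1b (0.725) and Slc13a1 (0.730), genes of a brush border protease and a sulfate transporter. Slc26a2 was nearest to Tfcp2l1 (0.279) and Itih5 (0.322), Scnn1a to St3gal3 (0.359) and Slc6a8 (0.364), Slc9a3 to Slco4a1 (0.403) and Fam83g (0.411), and Atp12a to Sval1 (0.743) and Gal3st2b (0.871). Cftr was nearest to Clec14a (0.228) and Chpt1 (0.232), and Slc12a2 to Cbx3 (0.150) and Zfp146 (0.181). Slc26a3 was nearest to Car4 and then to Hao2 (0.678). Slc26a2 lies at bases 61192919 to 61211612 and Slc12a2 at bases 57878678 to 57946821 of chromosome 18.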

How the data were processed

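RNA from colon tissue or organoids was made into TruSeq libraries. Per the labels, the authors aligned reads to mm10 with STAR 2.6.1d and counted them per gene with HTSeq 0.11.2, and the deposited values are raw read counts for 36757 genes. Strand use in counting is not given in the sources used here. The study's methods name another program, described there as assembling reads into transcripts, so the counting settings are uncertain. A further deposited table of the authors' own fold changes and p-values was not used.

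Groups followed the labels. Genes were filtered by group, scaled by TMM and tested with edgeR 4.0.16 (quasi-likelihood, R 4.3.3) with Benjamini-Hochberg adjustment over all genes tested. Genes were called where the adjusted p was below 0.05 and groups differed 2-fold or more. Genotypes were compared within each model on 6 libraries, and models on 12. Standard errors were derived from the log2 fold change and its F statistic. Levels used 1 TMM scaling of all 18 libraries, and RPKM the GENCODE exon lengths, 36696 of 36753 identifiers matching. The scripts were tested on simulated counts. Alternatives used limma 3.58.1 (voom), DESeq2 1.42.0, other scalings, filters and covariates, and each library left out.

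Total counts of 11514716 to 24390082 per library (median 17332367) limit the precision of genes with few counts. Replicates differed beyond sampling noise (chi-square per degree of freedom from 7.44), so none was counted as a duplicate. In colitis, same-numbered libraries of the 2 genotypes deviated together (r = 0.274, 0.124 and 0.553 across genes, which are not independent). However, 2 differently numbered pairs (r = 0.293 and 0.257) exceeded the lowest of these, and no label gives a pairing. A pairing by number is therefore not established. The reported colitis test used no pairing, and adding the replicate number as a block changed no count of calls in colitis. The members and gene lists were chosen with earlier results of these data known. The text names all 10 members, the called genes of the transport list (up to 4 by size in each role) and the 2 genes nearest to each member in pattern. A result that needs an item withheld from the text is not reported here.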

Additional observations from a re-analysis of the deposited data

Results flagged for a closer look

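The genotype difference (RNF138-/- minus wild type, log2) in CAC differed from that in colitis for 5 members by the test of the difference itself in edgeR, with Benjamini-Hochberg adjustment. For Car1 the difference between models was -7.18, for Aqp8 -7.56, for Car4 -6.19 and for Slc26a2 -2.19, each downward, and for Slc12a2 it was 1.54. Without the 3 colon libraries low in distal Hox genes that of Car1 was -2.45.

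For Car4 and Slc26a2, every RNF138-/- library was below every wild-type library in CAC and above it in organoids. In CAC 20.7% of all genes tested were lower without overlap, and the share in organoids was not computed. Sex and genotype cannot be told apart in the organoids. In CAC the log2 fold change was -6.51 for Car4 and -2.86 for Slc26a2. In organoids it was 0.71 for Slc26a2, while Car4, with 2 to 3 counts in the wild-type and 9 to 12 counts in the RNF138-/- libraries, was not tested. The difference between CAC and organoids in the genotype effect was not tested.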

How the results depend on the processing

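The call thresholds, 3 libraries a group and the differences between libraries of 1 group limit these results. RLE size factors and a filter of at least 10 counts in 3 libraries changed no count of calls by over 1.5 times. Where a value below differs from the one reported, the cause was not tested unless the alternative tests fewer libraries. For most fits with 1 library left out, the share of all genes called was not computed. Leaving out the 3 libraries low in distal Hox genes was chosen after seeing the data, and leaves RNF138-/- colitis with 1 library, assumed to vary like the other groups.

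In the genotype comparison in colitis, with 0 members and 0 genes of the 53-gene transport list called, dropping the low-count filter gave 1 member higher and 1 lower and 2 list genes higher and 2 lower. DESeq2 gave 1 member higher and 1 lower and 1 list gene higher and 2 lower, and the Y-linked covariate gave 1 list gene higher and 2 lower, with Slc9a3 at a log2 fold change of -0.014. Without the libraries low in distal Hox genes, 3 list genes were lower, and Car1 (-0.22), Car4 (0.42), Aqp8 (0.85) and Atp12a (0.093) changed sign. Leaving out 1 library gave 0 to 1 list genes higher and 0 to 2 lower, Slc9a3 from -0.28 to 0.38 and Aqp8 from -1.57 to 0.27.

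In the genotype comparison in CAC, with 4 members lower and 1 higher, members lower numbered 7 with no filter, 7 with all 18 libraries in 1 fit and 0 with the Y-linked covariate. The member higher was 0 without TMM, with the replicate block, with the Y-linked covariate, with epithelial scaling and without the libraries low in distal Hox genes. List genes lower, 7 in the report, were 17 by DESeq2, 15 with all 18 libraries and 0 with the Y-linked covariate. List genes higher were 1 without TMM, with no filter, by DESeq2, with all 18 libraries, with epithelial scaling and without the libraries low in distal Hox genes, and 2 with no fold minimum. Slc9a3 changed sign to 0.042 without TMM, 0.50 with the Y-linked covariate, 0.36 with epithelial scaling and 0.15 without the libraries low in distal Hox genes. Leaving out 1 library gave 0 to 6 members lower and 0 to 1 higher, 0 to 9 list genes lower and 0 to 2 higher, and Slc9a3 from -0.57 to 0.15.

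In the genotype comparison in organoids, with 1 member higher, members higher numbered 2 with no filter, 0 with all 18 libraries, 3 with epithelial scaling and 2 with no fold minimum. List genes higher, 1 in the report, were 2 with the replicate block, 13 with epithelial scaling and 4 with no fold minimum. Those lower, 4 in the report, were 7 without TMM, 1 with all 18 libraries, 1 with epithelial scaling and 7 with no fold minimum. With epithelial scaling 24.3% of all genes were called higher and 2.64% lower, so the list counts in that scaling are near the background. Without TMM, Scnn1a (-0.019), Aqp8 (-0.16) and Slc12a2 (-0.0016) changed sign, and with epithelial scaling Car1 (0.25), Slc9a3 (0.25) and Cftr (0.34) did. By construction these scalings move all genes together, by a median log2 shift of -0.20 without TMM and 0.61 with epithelial scaling, so these members stayed on their side of the median gene. Leaving out 1 library gave 1 to 4 members and 0 to 4 list genes higher, Car1 from -0.53 to 0.19, Slc9a3 from -0.60 to 0.18, Aqp8 from -0.087 to 0.35 and Cftr from -0.60 to 0.50.

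For CAC against colitis in wild type, 1 member was lower with no filter and without the libraries low in distal Hox genes, list genes higher were 4 by limma voom and 3 with the Y-linked covariate, and list genes lower were 6 without the libraries low in distal Hox genes and 5 with no fold minimum. Leaving out 1 library gave 0 to 1 members lower, 3 to 8 list genes higher and 1 to 5 lower. In RNF138-/-, 1 member was higher without TMM, with epithelial scaling, without the libraries low in distal Hox genes and with no fold minimum, 15 list genes were lower without the libraries low in distal Hox genes, and leaving out 1 library gave 0 to 1 members higher. Scnn1b lost its call in RNF138-/- with the replicate block (adjusted p = 0.0517), and in wild type limma voom did not call Car3, Scnn1g and Fxyd4 (adjusted p from 0.0532 to 0.0761). For the genotype difference between models, 0 members were higher with epithelial scaling, where Slc26a2 also lost its call (-1.73, adjusted p = 0.0854), and 0 to 1 when 1 library was left out. For RNF138-/- organoids against CAC, 5 members were lower without TMM, 1 was higher without the libraries low in distal Hox genes, and 0 to 1 were higher when 1 library was left out.

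In CAC and organoids, as in colitis, the replicate numbers are not known to mark a pairing. Same-numbered libraries correlated at 0.029, 0.24 and 0.081 in CAC and at -0.24, -0.10 and 0.088 in organoids. The replicate block changed the counts named above and no other count of calls by over 1.5 times. The Y-linked covariate could not be fitted usefully where organoids enter, since Y-linked reads divide them as genotype does. List counts for the genotype difference between models and for organoids against CAC, and fold changes of members not called outside the genotype comparisons, were planned but not run under the alternatives.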
